A study of Rattus norvegicus with 24 samples.

Results

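Fibronectin (Fn1), osteopontin (Spp1) and Ccn2, the connective tissue growth factor formerly called Ctgf, are 3 genes of the provisional matrix of a healing wound, and their transcripts were followed through 4 treatment groups of rat hearts. They were picked by gene ID (ENSRNOG00000014288 for Fn1, ENSRNOG00000043451 for Spp1 and ENSRNOG00000015036 for Ccn2) from the 32883 gene rows of the count table, and all 3 passed the filter on low counts that left 14540 genes for testing. RNA was sequenced from left ventricles of Sprague Dawley rats, which are outbred laboratory animals, with 6 libraries in each group. Sham hearts were operated controls, MI hearts had a myocardial infarction (heart muscle killed by loss of its blood supply) and no patch, Sutured patch hearts had an infarct and a patch held by sutures, and Microneedle patch hearts had an infarct and a self-interlocking patch held by microneedles. Per the labels, tissue came from the infarct region on day 7 after infarction and patch implantation. The labels give no age, genetic alteration, method of infarction or patch material, do not say where in the ventricle Sham tissue was taken, and do not state that each library is a separate rat, so the p-values describe the spread of these libraries, which may be technical.

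A provisional matrix is the scaffold of plasma and cell-derived proteins that fills an infarct before fibrillar collagen replaces it. Fibronectin is the large adhesive glycoprotein that cells assemble into fibrils and grip through integrins. Osteopontin is a secreted phosphoprotein that binds integrins and CD44, and activated macrophages are among its main sources after cardiac injury. Ccn2 is a matricellular protein, induced by transforming growth factor beta and by the mechanically regulated YAP and TEAD factors, and it modulates the deposition of matrix by fibroblasts.

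The table of RefSeq promoters (assembly GRCr8) held 2 of the 3 genes, Spp1 and Ccn2; Fn1 was not matched. The 250 bases before each start are shown because Spp1 and Ccn2 both rose in the infarct, and the letters in capitals are matches to 4 motifs searched on both strands. The motif of TEAD factors was written as GGAATG. The core promoter box that lies ahead of many starts was written as TATAAA. The motif of AP-1 was written as TGANTCA, and that of RUNX factors as AACCNCA. The windows are on the minus strand of chr14:5619805-5620054 for Spp1 and of chr1:22624615-22624864 for Ccn2, and are written 5′ to 3′ along the gene.
Spp1: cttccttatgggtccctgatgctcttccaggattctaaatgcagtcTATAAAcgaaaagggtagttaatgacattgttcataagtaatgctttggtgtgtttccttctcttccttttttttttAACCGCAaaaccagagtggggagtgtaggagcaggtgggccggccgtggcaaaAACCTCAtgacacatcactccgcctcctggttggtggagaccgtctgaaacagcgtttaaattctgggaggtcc
Ccn2: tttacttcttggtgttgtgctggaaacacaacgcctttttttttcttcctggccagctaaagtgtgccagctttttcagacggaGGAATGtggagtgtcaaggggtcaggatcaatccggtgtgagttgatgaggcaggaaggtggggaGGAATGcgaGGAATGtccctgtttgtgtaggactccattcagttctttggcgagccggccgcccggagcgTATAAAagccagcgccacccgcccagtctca
The Ccn2 window held 3 matches to the TEAD letters, beginning 166, 101 and 92 bases before the start, and 1 match to the core promoter box that began 31 bases before it. The Spp1 window held 2 matches to the RUNX letters, AACCGCA and AACCTCA, beginning 127 and 74 bases before the start. They differ at the N, which was written to admit any base, so these are matches to loose letters. Whether either one, AACCTCA in particular, is a RUNX site was not tested. The letters TATAAA were matched 204 bases before the Spp1 start, and whether they act as a core promoter box there was not tested. No match overlapped a match to another motif, and the AP-1 letters were in neither window. Among 33469 promoter windows of this length, 12.1% held at least 1 TEAD match and 12.9% at least 1 match to TATAAA, at any position. At least 1 RUNX match was in 12.9% and an AP-1 match in 6.34%, and 3 or more TEAD matches were in 0.0807%. The share with 2 RUNX matches was not computed. These matches describe letters and were not set against any measurement of binding.

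Library totals ranged from 5443782 to 14552623 counts, and each Sham library (at most 11757562) was shallower than each library with an infarct (at least 12574300). Depth and the Sham group therefore cannot be told apart. Levels are given as CPM, the reads of a gene scaled to a common library size that TMM adjusts, and they are compared between groups for 1 gene at a time, since counts also grow with transcript length. In bulk tissue, fewer cells of a type and less RNA per cell cannot be told apart. The labelled tissue could not be checked against marker genes, because the count table carries IDs without symbols.

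All 3 transcripts were far higher in the infarct region than in Sham ventricle, in each of the 3 infarct groups. In MI, Fn1 rose 17.4-fold, Ccn2 16.6-fold and Spp1 237-fold, the last from a Sham level of a few CPM. In MI against Sham 3 of 3 members were called higher (edgeR adjusted p below 0.05), where 21.6% of all genes tested were called higher. The same count was 3 of 3 for Sutured patch against Sham, with 24.1% of all genes called higher, and 3 of 3 for Microneedle patch against Sham, with 25.9%. No library of any infarct group overlapped with Sham for any of the 3 genes; of all genes tested, 23.8%, 20.4% and 25.5% had no overlap with Sham, in either direction, in MI, Sutured patch and Microneedle patch, respectively. These comparisons share the Sham libraries.

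**Figure D1:**
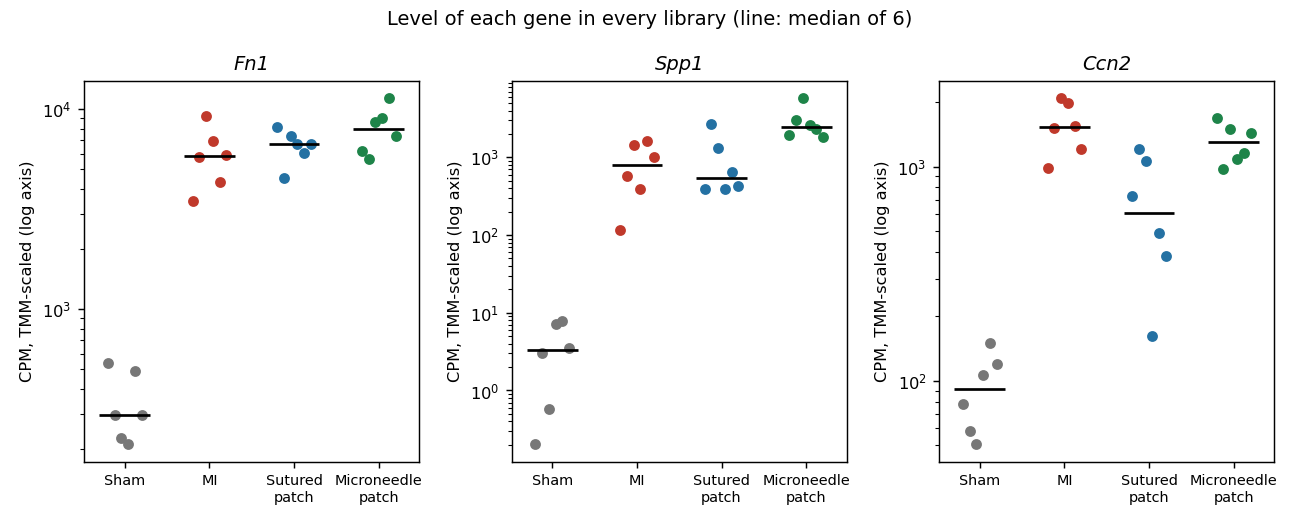
CPM of Fn1, Spp1 and Ccn2 on log axes in each of the 24 libraries, grouped by treatment, with replicates 1 to 6 from left to right in each group and a line at the group median. All infarct libraries lie above all Sham libraries; Spp1 is highest with the microneedle patch and Ccn2 is lowest, among infarct groups, with the sutured patch.

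Fn1, the fibril-forming adhesive protein, was called in none of the 3 comparisons between infarct groups. In Sham its level ran from 211 CPM at the lowest through a median of 295 to 539 at the highest, and in MI from 3468 through 5835 to 9233 CPM. With the sutured patch it ran from 4552 through 6680 to 8104 CPM, and with the microneedle patch from 5625 through 7984 to 11337 CPM. The 3 infarct groups overlapped broadly, and the highest library of the study was Microneedle patch replicate 5. As a share of all counts, Fn1 took 0.0333% ± 0.0128 of Sham libraries, 0.592% ± 0.192 of MI libraries, 0.684% ± 0.130 of sutured libraries and 0.794% ± 0.244 of microneedle libraries (SD, n = 6 each). In Microneedle patch replicate 5 this single gene took 1.18% of all counts (95% Clopper-Pearson interval 1.17 to 1.18, for counting error only).

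Against Sham, the log2 fold change of Fn1 was 4.12 (SE 0.29, edgeR adjusted p = 7.26e-11) in MI. It was 4.26 (SE 0.29, edgeR adjusted p = 3.74e-11) with the sutured patch and 4.55 (SE 0.29, edgeR adjusted p = 1.08e-11) with the microneedle patch. The order of mean levels was Sham, MI, Sutured patch, Microneedle patch, and no pair of neighbours among the infarct groups differed beyond the spread. Sutured patch against MI gave a log2 fold change of 0.15 (95% interval -0.38 to 0.67, edgeR adjusted p = 0.781). Microneedle patch against MI gave 0.43 (95% interval -0.09 to 0.96, edgeR adjusted p = 0.243), which spans folds from 0.937 to 1.94. The patches differed by 0.29 (95% interval -0.24 to 0.81, edgeR adjusted p = 0.661).

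Spp1, the integrin- and CD44-binding phosphoprotein, showed the steepest rise. Sham libraries held between 2 and 73 Spp1 counts, 194 in all, which is from 0.202 through a median of 3.28 to 7.83 CPM. The lowest value, from Sham replicate 1, was 2 counts, with a Poisson interval (95%, counting error only) of 0.0245 to 0.731 CPM, while a floor of 3 counts stood at 0.304 CPM in that library. In MI the level ran from 117 through 800 to 1633 CPM and with the sutured patch from 389 through 540 to 2680 CPM. With the microneedle patch it ran from 1819 through 2479 to 5740 CPM. Every microneedle library lay above every MI library, whereas the sutured libraries overlapped with both groups.

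The log2 fold change of Spp1 against Sham was 7.89 in MI (SE 0.83, edgeR adjusted p = 4.79e-08), or 237-fold with a 95% interval of 71.5- to 787-fold. It ranked as the 12th highest of 14540 genes in that comparison. With the sutured patch it was 8.07 (SE 0.84, edgeR adjusted p = 2.74e-08), and with the microneedle patch 9.65 (SE 0.89, edgeR adjusted p = 2.87e-09), the 11th highest of the genes tested there. Sham replicates 4 and 5, the libraries with the fewest genes detected (14079 and 13635, against 16223 to 16449 in the other Sham libraries), had the highest Sham levels of Spp1, at 7.25 and 7.83 CPM. Without them, an alternative chosen after seeing the data, the MI value against Sham was 8.85 on the log2 scale (SE 1.01, edgeR adjusted p = 3.74e-07), that of the sutured patch 9.03 and that of the microneedle patch 10.59.

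Among infarct hearts, Spp1 had a mean 3.38-fold higher level with the microneedle patch than in MI, but the difference fell just short of the threshold. The log2 fold change was 1.76 (SE 0.62, 95% interval 0.46 to 3.05, edgeR adjusted p = 0.0575), with 6 of 6 microneedle libraries above all MI libraries. In this comparison 6.54% of all genes were higher without overlap, and 98.7% of genes had a lower fold change than Spp1. The call depended on the fit: the replicate number as a block gave an edgeR adjusted p of 0.0203 (log2 fold change 2.004) and the 2 groups alone 0.0213, DESeq2 gave 0.0340 and limma-voom 0.00368, but RLE factors, total counts and no filter left it at 0.0590, 0.0617 and 0.0989. Leaving out Sham replicate 1, 3, 4 or 5, MI replicate 3 or 5, or Sutured patch replicate 2 brought edgeR's adjusted p to between 0.0380 and 0.0497. In the other 17 of 24 fits with a library left out it stayed uncalled, with edgeR adjusted p up to 0.119 without MI replicate 1. For the microneedle against the sutured patch the log2 fold change was 1.58 (SE 0.62, 95% interval 0.29 to 2.86, edgeR adjusted p = 0.244), and 2 of 6 microneedle libraries lay above all sutured libraries. For the sutured patch against MI it was 0.18 (95% interval -1.08 to 1.44, edgeR adjusted p = 0.893).

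The spread of Spp1 was wide in groups other than Microneedle patch, which itself held 1 high library. The highest library exceeded the lowest 13.9 times in MI, 6.89 times with the sutured patch and 3.15 times with the microneedle patch. In MI, replicate 1 was low at 117 CPM while replicates 3, 5 and 6 stood at 1449, 1633 and 1025 CPM. With the sutured patch, replicate 2 stood at 2680 CPM and replicate 3 at 1334 CPM, and the other 4 lay between 389 and 656 CPM. The mean order was Sham, MI, Sutured patch, Microneedle patch (3.74 ± 3.23, 864 ± 605, 979 ± 908 and 2917 ± 1454 CPM; SD, n = 6 each), but by the median the sutured patch was below MI. The direction between MI and Sutured patch also turned without Sutured patch replicate 2, to -0.41 on the log2 scale, and without MI replicate 1, to -0.05.

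Ccn2, the matricellular regulator, was the only one of the 3 members called different between infarct groups in the edgeR fit. In Sham it ran from 50.5 through a median of 92.2 to 150 CPM, and in MI from 982 through 1534 to 2080 CPM. With the sutured patch it ran from 162 through 610 to 1214 CPM, and with the microneedle patch from 979 through 1296 to 1689 CPM. The microneedle libraries lay within the range of MI but for replicate 2, which at 979 CPM was just below the lowest MI library. Of the sutured libraries, 4 of 6 lay below every MI library, and replicate 4, at 162 CPM, came close to the highest Sham library, replicate 5 at 150 CPM.

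Against Sham, the log2 fold change of Ccn2 was 4.05 (SE 0.39, edgeR adjusted p = 1.14e-08) in MI. It was 2.85 (SE 0.37, edgeR adjusted p = 7.18e-07) in sutured and 3.80 (SE 0.38, edgeR adjusted p = 1.17e-08) in microneedle hearts. The sutured patch group was lower than MI by 2.30-fold on average (log2 fold change -1.20, SE 0.35, 95% interval -1.93 to -0.48, edgeR adjusted p = 0.0454). In Sutured patch against MI 1 of 3 members was thus called, and it was lower. In all, 1.67% of the genes tested were called lower and 2.72% had a lower fold change than Ccn2. The call was lost in 16 of 24 fits that left out a library, with edgeR adjusted p up to 0.111 without Sutured patch replicate 6, and the log2 fold change stayed between -1.43 and -1.001.

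The libraries whose omission ended the Ccn2 call were all 6 of MI, Sutured patch replicates 1, 4, 5 and 6, Microneedle patch replicates 1, 3, 4, 5 and 6, and Sham replicate 6. Without Sutured patch replicate 4, the lowest library, the log2 fold change was -1.001 (edgeR adjusted p = 0.0706). The call was also lost with the replicate number as a block (log2 fold change -1.26, edgeR adjusted p = 0.0571), with the 2 groups fitted alone (edgeR adjusted p = 0.0540) and without a filter on low counts (edgeR adjusted p = 0.0542), whereas DESeq2 and limma-voom called it, with adjusted p-values of 0.00986 and 0.000294. Microneedle patch against MI gave a log2 fold change of -0.25 for Ccn2 (95% interval -0.96 to 0.46, edgeR adjusted p = 0.649). The microneedle patch was higher than the sutured patch by 0.96 (SE 0.34, 95% interval 0.24 to 1.67, edgeR adjusted p = 0.206). The mean order of Ccn2 was therefore Sham, Sutured patch, Microneedle patch, MI (93.8 ± 38.2, 674 ± 406, 1307 ± 273 and 1552 ± 424 CPM; SD, n = 6 each), in which Sutured patch and Microneedle patch, and Microneedle patch and MI, did not differ at the threshold.

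In Microneedle patch against MI 0 of 3 members were called by edgeR, where 14.5% of all genes were; 1 of 3 had an unadjusted p below 0.05, and DESeq2 and limma-voom each called 1, Spp1. Between the patches 0 of 3 were called by edgeR, where 0.316% of all genes were. There, 2 of 3 (Spp1 and Ccn2) had an unadjusted p below 0.05, DESeq2 called 0 and limma-voom called both (log2 fold changes 2.24 and 1.49, adjusted p = 0.0251 and 0.0184).

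**Figure D2:**
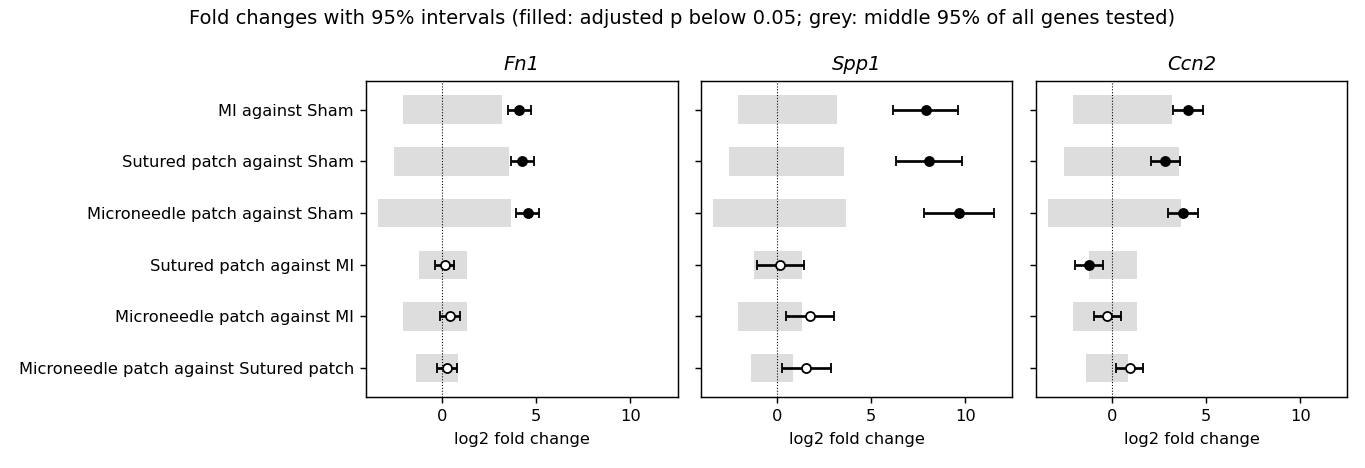
Log2 fold changes from edgeR with 95% intervals for Fn1, Spp1 and Ccn2 in the 6 comparisons (first-named group minus second); filled points had an adjusted p below 0.05, and grey bars span the middle 95% of all genes tested. Spp1 lies far beyond the bars in all 3 comparisons with Sham, and Ccn2 is the single filled point among the comparisons between infarct groups.

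The relation between the members was read from count ratios within each library, which need no scaling between libraries and are given as descriptions. Ratios of other gene pairs were not computed, so no background share stands beside them. The ratio of Ccn2 to Fn1 was alike in Sham and MI and lower, on average, in both patch groups. Its log2 value was -1.88 ± 0.67 in Sham and -1.91 ± 0.29 in MI, but -3.55 ± 1.18 in sutured and -2.60 ± 0.51 in microneedle hearts (SD, n = 6 each). In counts, there were 27.3 of Ccn2 for each 100 of Fn1 in the median MI library, 8.54 in the median sutured and 17.3 in the median microneedle library. MI libraries ranged from 20.4 to 35.9, and of the sutured libraries replicate 2 alone, at 26.7, was inside that range. Of the microneedle libraries replicate 1 alone, at 27.4, was inside it, so that the ratio was lower than in any MI library in 5 of 6 libraries of each patch. The ratio moves with either gene: with the microneedle patch the mean of Fn1 was above that of MI and the mean of Ccn2 below it, and neither passed the test alone.

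The ratio of Spp1 to Fn1 rose, on average, from Sham to the infarct groups and its mean was highest with the microneedle patch. On the log2 scale it was -7.30 ± 2.34 in Sham hearts, -3.16 ± 1.25 in MI hearts, -3.15 ± 1.36 in sutured and -1.54 ± 0.66 in microneedle hearts (SD, n = 6 each). Microneedle libraries held from 20.7 to 66.3 Spp1 counts for each 100 of Fn1, MI libraries from 3.38 to 37.8 and sutured libraries from 4.82 to 58.9. The microneedle range overlapped with the other 2 through MI replicate 5 and Sutured patch replicate 2. Sham libraries held from 0.0375 to 3.44. Sham and MI overlapped as well, since Sham replicate 4, at 3.44, lay above MI replicate 1, at 3.38. The Sham ratios rest on low Spp1 counts, from 2 to 73.

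The ratio of Spp1 to Ccn2 separated MI from the microneedle patch without overlap, as the level of Spp1 alone already did. The log2 ratio of Spp1 to Ccn2 was -5.42 ± 1.81 in Sham hearts, -1.25 ± 1.25 in MI hearts, 0.40 ± 0.78 in sutured and 1.07 ± 0.69 in microneedle hearts (SD, n = 6 each). For each 100 Ccn2 counts, MI libraries held from 11.9 to 105 Spp1 counts and microneedle libraries from 115 to 384. The sutured libraries, from 53.6 to 240, overlapped with both; 5 of the 6 lay above MI replicate 5, the highest of MI. Relative to MI, the mean of Ccn2 was 674 against 1552 CPM and that of Spp1 979 against 864 CPM in sutured hearts. In microneedle hearts the mean of Ccn2 was 1307 CPM and that of Spp1 2917 CPM.

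**Figure D3:**
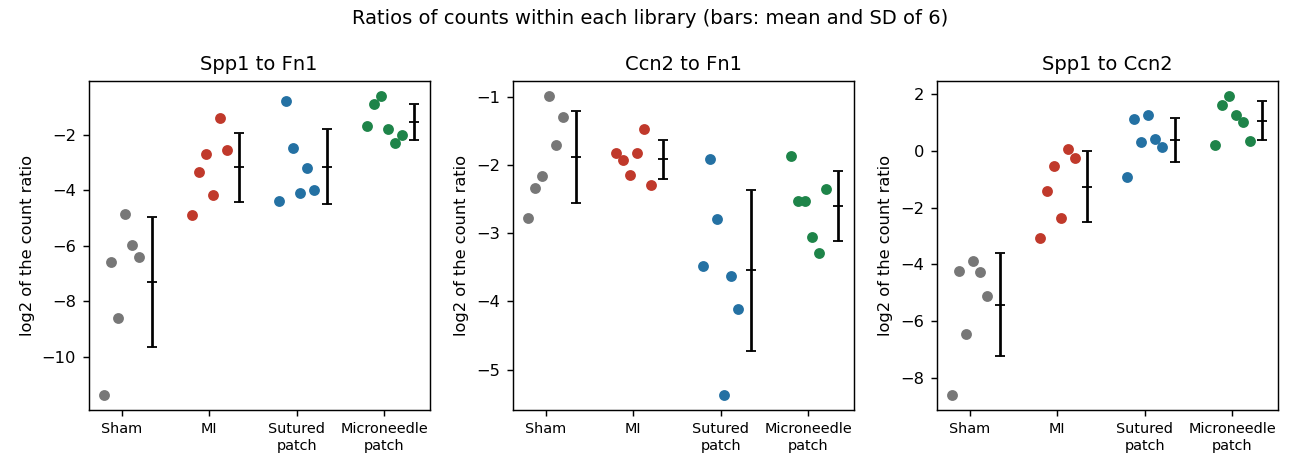
Log2 ratio of counts of 2 members within each of the 24 libraries, by group, with the mean and SD of 6 libraries to the right of the points. The ratio of Ccn2 to Fn1 is lowest with the sutured patch, and the ratio of Spp1 to Ccn2 separates MI (at most 0.07) from the microneedle patch (at least 0.20).

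Together the 3 genes took up 0.0427% ± 0.0144 of Sham counts, 0.834% ± 0.254 of MI counts, 0.852% ± 0.0972 of sutured and 1.21% ± 0.302 of microneedle counts (SD, n = 6 each). Most of that was Fn1 in every infarct group. The range was 0.474% to 1.26% in MI and 0.887% to 1.55% with the microneedle patch, so that the groups overlapped.

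Whether libraries high in one member were high in another was asked within each group. Pearson's r of log2 CPM was computed for 3 pairs in 4 groups, 12 values in all, each over 6 libraries with an exact permutation test over 720 pairings, and none passed after adjustment (lowest exact adjusted p = 0.428 for r and 0.411 for Spearman's rho). The highest was that of Fn1 and Ccn2 in MI (r = 0.82, exact p = 0.0542; rho = 0.77, exact p = 0.103; r = 0.32 without the 2 libraries farthest from the median of Fn1). Spp1 and Ccn2 with the sutured patch gave r = 0.75 (exact p = 0.0764) and rho = 0.83 (exact p = 0.0583). Their r was 0.27 without the 2 libraries farthest from the median of Spp1. Leaving out the farthest libraries narrows the range of the first gene. The lower r of both pairs therefore cannot show whether the correlations rest on those libraries. Sutured patch replicate 2, which had the highest Spp1 and the highest Ccn2 of its group, had its lowest Fn1 (4552 CPM) and the fewest genes detected in it (16359, against 17155 to 17404 in the others). The part of that library's composition in these values was not tested.

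**Figure D4:**
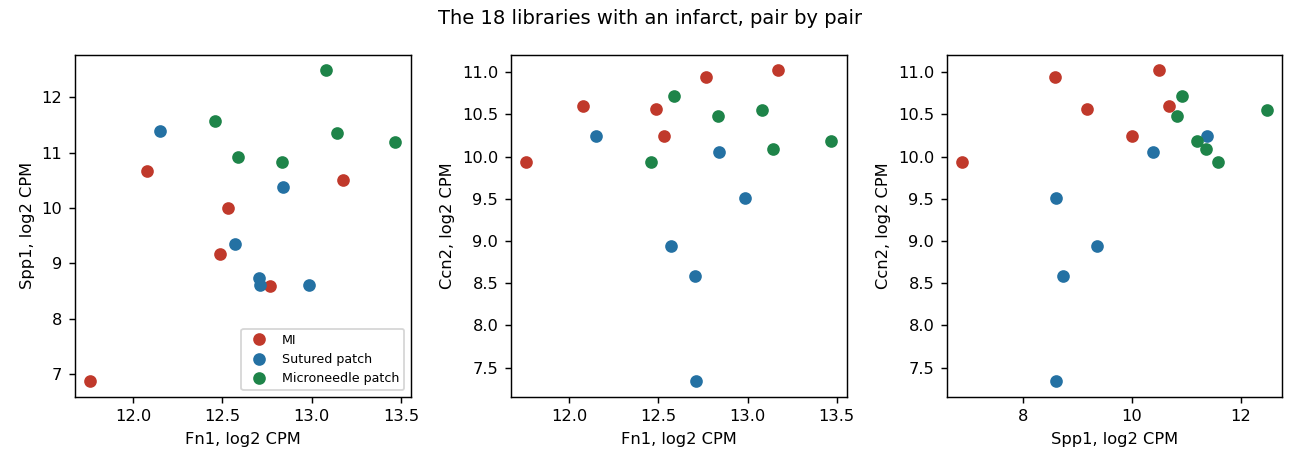
Log2 CPM of each pair of members in the 18 libraries with an infarct, coloured by group. Microneedle libraries lie at the high end of Spp1 at a Ccn2 like that of MI, whereas the sutured libraries spread down to a low Ccn2 of 7.34.

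The genes most like each member were sought among 10704 other genes that reached a mean of 10 CPM in at least 1 group, by Pearson's r of log2 CPM over the 24 libraries. This r is a description and mostly reflects the step from Sham to infarct, which the libraries share with depth. Between the members themselves it was 0.92 for Fn1 and Spp1, 0.87 for Fn1 and Ccn2 and 0.90 for Spp1 and Ccn2, and over the 18 infarct libraries with group means removed it was 0.13, 0.10 and 0.54. The gene most like Spp1 was ENSRNOG00000008816 (r = 0.98), at 17.2 ± 8.03 CPM in Sham hearts, 1399 ± 803 in MI hearts, 1374 ± 731 in sutured and 2734 ± 1488 in microneedle hearts (SD, n = 6 each). The gene most like Ccn2 was ENSRNOG00000004699 (r = 0.98, and 0.91 over the 18 infarct libraries with group means removed), at 29.9 ± 8.62, 379 ± 46.4, 177 ± 76.6 and 246 ± 42.1 CPM in the same order. Both had a higher mean in MI than in Sham (edgeR log2 fold changes 6.34 and 3.67). An r over the 24 libraries favours genes with that step, so their rise adds no separate support. Both are printed as IDs because the data do not pair IDs with names. ENSRNOG00000008816 was not among the 3 IDs most like Spp1 over the 18 infarct libraries with group means removed, whose r was 0.91 to 0.93. The 2 printed IDs were picked from 18 listed entries after their values were seen.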

How the data were processed

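Per the submitters' processing notes, the authors used HISAT2, featureCounts and the build rn6; their versions, the annotation, the use of strand and the treatment of multi-mapping reads were not given in the sources used here, so reads of overlapping or antisense genes could not be separated. The authors deposited raw counts for each Ensembl ID, unpooled, in 1 column per library (0 columns unassigned). The 3 members' symbols came with their IDs; through the RefSeq table at hand (GRCr8) 0 of the other IDs could be paired with symbols, so no pathway list or cell type marker list was run. Members and lists were chosen with earlier results of these data known.

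Genes were filtered with filterByExpr (minimum count 10), scaled by TMM and tested with a robust quasi-likelihood F test in edgeR 4.0.16 (R 4.3.3) on all 24 libraries with 4 group means (20 residual degrees of freedom). P-values were adjusted by Benjamini-Hochberg over all 14540 genes in each of 6 comparisons. SE is the absolute log2 change over the root of the F statistic, and 95% intervals use 20 degrees of freedom. The edgeR script was tested on simulated data. Log2 CPM used a prior count of 2. The rule for named genes took the members and, for each, the 3 most alike IDs over 24 and over 18 libraries, with at most 2 unnamed IDs printed that rose. No 2 libraries of a group agreed within sampling noise (lowest chi-square per degree of freedom 14.7). Alternatives were RLE factors, total counts, no filter, DESeq2 1.42.0, limma-voom with quality weights (limma 3.58.1), 2 groups alone, a replicate block, each library left out, and, added after seeing the data, Sham replicates 4 and 5 left out and all libraries thinned to the shallowest.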

Additional observations from a re-analysis of the deposited data

Results flagged for a closer look

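Spp1 in Microneedle patch replicate 3, at 5740 CPM, stood apart from the other 5 libraries of its group, of which the nearest was at 3047 CPM; the gap made up 0.687 of the group's range. Chance flags about 1 in 20 groups if values are normally spread, and 24 sets of 6 values (3 levels and 3 ratios in 4 groups) were examined. Levels were examined as CPM and not on the log2 scale. In log2 CPM this library was at 12.49, the nearest at 11.57 and the lowest of the group at 10.83, so the gap takes up less of the range.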

How the results depend on the processing

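The 9 comparisons of members with Sham kept direction and call under all 9 alternative settings and all 24 fits with a library left out. The same held for Fn1 between infarct groups and for Ccn2 in Microneedle patch against MI, none of which was called. Ccn2 in Sutured patch against MI (log2 fold change -1.20) lost its call without a filter (-1.21, adjusted p = 0.0542), with the 2 groups alone (-1.20, adjusted p = 0.0540) and with the replicate block (-1.26, adjusted p = 0.0571), and ranged from -1.43 to -1.001 with a library left out. Spp1 in Microneedle patch against MI (1.76, not called) was called with DESeq2 (1.75), limma-voom (2.08), the 2 groups alone (1.76), the replicate block (2.004, adjusted p = 0.0203), without Sham replicates 4 and 5 (1.75) and after thinning (1.78), and ranged from 1.46 to 2.06 with a library left out. Between the patches limma-voom called Spp1 (2.24) and Ccn2 (1.49). Spp1 in Sutured patch against MI turned to -0.16 with limma-voom and ranged from -0.41 to 0.48 with a library left out; it was called in none of these. The cause of these changes was not tested.

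Counts of all genes called, the background of the members' counts, moved more. For Sutured patch against MI (661) there were 1130 with DESeq2, 3148 with limma-voom, 2141 with the 2 groups alone, 1715 without Sham replicates 4 and 5, and 308 to 1408 with a library left out. For Microneedle patch against MI (2112) there were 5097 with limma-voom, 4593 with the 2 groups alone, 3804 without Sham replicates 4 and 5, and 1036 to 3482 with a library left out. Between the patches (46) there were 28 without a filter, 427 with DESeq2, 802 with limma-voom, 159 with the replicate block, 499 without Sham replicates 4 and 5, and 0 to 302 with a library left out.

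The labels do not say what libraries with the same replicate number share. Same-numbered libraries correlated in their deviations from group means with r from -0.14 to 0.44. At most 3 of 6 libraries correlated best with their own number in any comparison. In the 6 comparisons the mean r of same-numbered pairs was 0.064 to 0.146. The mean for other pairs was -0.030 to -0.014. It is no separate baseline, because removing the group means ties it to the mean of same-numbered pairs with the sign turned. Whether the numbers mark a batch was not tested. Apart from Ccn2 in Sutured patch against MI and Spp1 in Microneedle patch against MI, the replicate block changed no call of a member. Spp1 is least precise in Sham replicates 1 and 3, with 2 and 5 counts; after thinning to the shallowest library its value in MI against Sham was 7.86.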
